A study of Mus musculus with 12 samples.

Results

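Thymus tumors 7, 8 and 9 came from mice with inducible IL-7R alpha, the ligand-binding part of the interleukin-7 receptor. These tumors were compared with 3 control thymus libraries that also carry a high background. The tumors were chosen by 1 measured value, less than 25% of a library's counts on mitochondrial genes, and this kept 3 of the 9 tumors. With controls 1 to 3 the comparison holds 6 of the 12 libraries of the series. Tumor 7, with 11.1% of its counts on mitochondrial genes, lay nearest to the threshold on the inside, and tumor 6, with 31.6%, on the outside. All 12 libraries were made from polyadenylated thymus RNA, and the labels give F5 as the strain of every mouse. The tumors carry tetracycline-inducible expression of IL-7R alpha and are titled as doxycycline-induced, while the controls are labelled control genotype and healthy. The labels name neither the promoter nor the cell type that drives the transgene, and they give no age, no sex and no time of induction. They do not state whether every library is from its own animal, and p-values therefore reflect only the spread between these libraries, which may be technical.

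The interleukin-7 receptor pairs an alpha chain, encoded by Il7r, with the common gamma chain. When the cytokine binds, JAK1 and JAK3 phosphorylate STAT5, and early thymocytes depend on this signal for survival and growth. Signals through the same receptor can drive T cell acute lymphoblastic leukemia. Several genes named below belong to tandem families in which neighbors are almost identical. Skint genes encode membrane proteins of thymic epithelium and skin, and the founding member Skint1 is needed for a class of skin-homing gamma-delta T cells. Gvin1 encodes a very large GTPase induced by interferon.

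Counts here are kallisto estimated counts summed per gene. Levels are given as counts and as a ratio to silent genes in the same library, which is a gene's counts per kilobase of its longest transcript divided by the median of that value over 1432 olfactory and vomeronasal receptor genes. These receptors serve smell and pheromone sensing and are not known to be expressed by thymocytes, so a ratio near 1 lies at the library's background. Counts per kilobase of the silent genes ranged from 17.0 to 19.5 among controls and from 12 to 21.2 among tumors 7 to 9, and library totals were 8133152 to 12019924 and 11617724 to 17158731 counts. Satellite-like gene models took 29.9% to 37.1% of the counts in the controls and 39.0% to 59.5% in these tumors, against at most 2.44% in tumors 1 to 6. Controls and tumors 7 to 9 thus did not overlap in this share. Mitochondrial genes took 6.73% in control 1, 0.181% in control 2 and 0.095% in control 3, and 11.1%, 9.02% and 2.55% in tumors 7, 8 and 9. Control 1 therefore lay with tumors 7 and 8 in this measure, and controls 2 and 3 stood lower. Of the protein-coding genes, 932 nuclear ones lay above 5 times the silent genes in all 3 controls and 979 in all 3 tumors. The 10 with the highest median ratio were the same in both groups, Gm10800, Gm10801, Gm10717 to Gm10722, Gm11168 and Gm11027, which are satellite-like models or, for Gm11027, a predicted gene. No pair of libraries within a group matched within sampling noise, with a mean chi-square per gene of 3.06 to 89.3.

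The comparison asked which genes differed between leukemic and healthy thymus among libraries that share a high background. The background was not fully matched, since the satellite-like shares did not overlap between groups. Of 36449 genes tested, 9 were higher in tumors 7 to 9 and 9 were lower, which is 0.0247% in each direction (edgeR quasi-likelihood F test, Benjamini-Hochberg adjusted p below 0.05). The 9 higher genes were Gvin1, AC158600.4, AC153856.3, AC153856.4, Gm10406, Gm29216, Gm21638, Gm6089 and Gm8979. The 9 lower genes were Gm3259, Gm2163, Rps13-ps1, Gm3147, Gm16513, Gm42661, A430089I19Rik, Skint9 and Skint6. The groups did not overlap in any of the 18. Over all tested genes, all 3 tumors lay above all 3 controls in 2600 genes (7.13%) and below them in 2771 genes (7.6%), and the median log2 fold change was -0.01. Counts of separated genes in the lists and stretches below are to be read against these shares. Of 13 satellite-like models, 10 had all tumors above all controls and 0 below. Their median log2 fold change was 1.51, and 0 passed the test.

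The counts of called genes rested on single libraries. Without control 3, 249 genes passed as higher and 24 as lower. Without control 1 there were 40 and 39. Leaving out control 2 left 2 higher and 0 lower, and leaving out tumors 7, 8 or 9 left 4, 1 or 3 higher and 3, 0 or 0 lower. With library totals in place of the scaling factors the split turned to 63 higher and 295 lower as the median of all genes moved to -0.71, and with DESeq2's size factors in edgeR it was 9 higher and 6 lower. None of the 18 genes changed direction in any alternative that gave it a value.

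**Figure D1:**
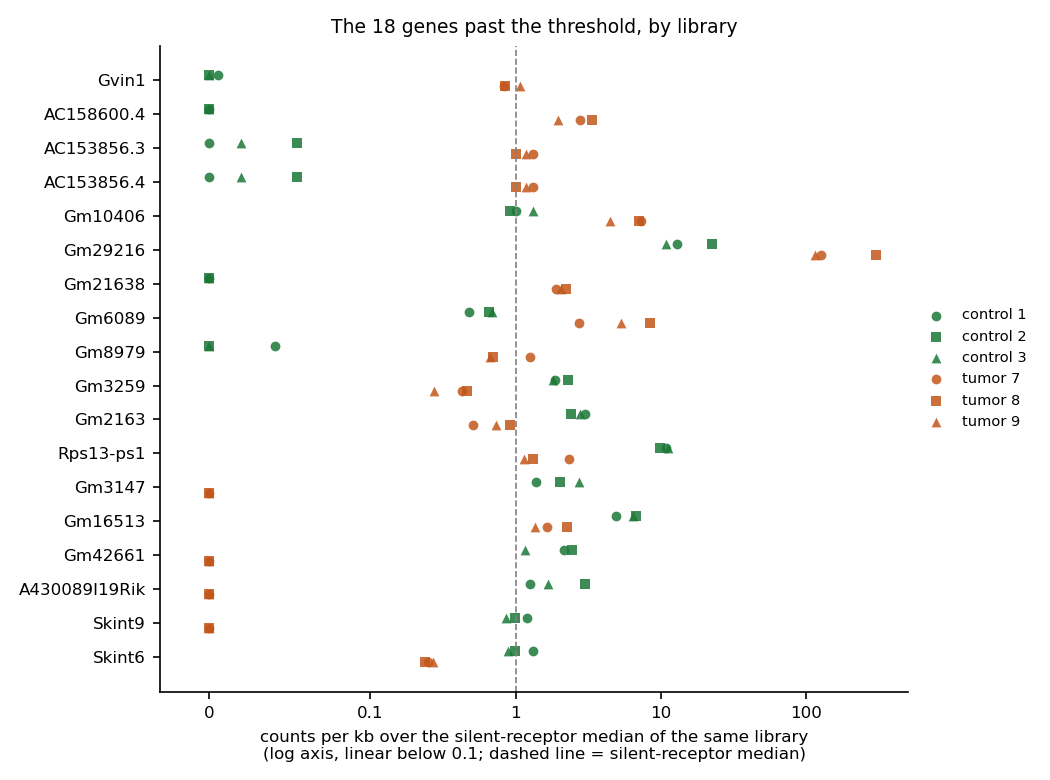
Ratio to silent genes, on a log axis that is linear below 0.1, for the 18 called genes in each of controls 1 to 3 (green) and tumors 7 to 9 (orange), 1 symbol per library. The dashed line at 1 marks the silent genes of the same library. Gvin1 lies at 0.834 to 1.06 in the tumors and near 0 in the controls, Skint9 at 0.859 to 1.19 in the controls and at 0 in the tumors, and the groups are apart in every row.

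Gvin1 (ENSMUSG00000045868, mm10 chromosome 7, 106156556 to 106215326, minus strand) had the smallest adjusted p. It held 1, 0 and 0 counts in controls 1 to 3 and 90, 101 and 203 in tumors 7, 8 and 9. The groups did not overlap, and the tumor values were not above background, since the ratio to silent genes was 0.834, 0.850 and 1.06. The log2 fold change was 8.32 ± 0.52 (SE, adjusted p = 0.00132, edgeR). With 1, 0 and 0 counts in the controls the size of this fold is poorly bounded, whatever its SE. Scaled levels were 0.0226 ± 0.0392 CPM (counts scaled for library size, SD, n = 3) in the controls and 11.9 ± 2.79 CPM in the tumors. Tumors 1 to 6 held 176, 189, 0, 329, 50 and 16 counts, so 1 of them also read 0. Gvin1 passed the threshold in 17 of 18 alternatives, with adjusted p from 1.05e-14 to 1.00. These 18 leave out the sum over its family of 5 near-identical genes. That sum gave a log2 fold change of 0.43 and did not pass (edgeR adjusted p = 0.595).

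Gvin1 has a near-identical copy on the same chromosome, Gm4070. The coding sequences of Gvin1 and Gm4070 differ in 3 of 7281 bases. Because 99.7% of the 31-base words of Gvin1 also occur in other genes, few reads belong to it alone, and its count is uncertain.  The stretch around 1 such letter is shown because such letters are all that separates the reads of the pair in coding sequence. The capital marks the letter that differs, both run 5′ to 3′ on the minus strand (mm10), and both were cut from GENCODE M21 transcripts (chr7:106163426-106163486 and chr7:105902009-105902069).
Gvin1: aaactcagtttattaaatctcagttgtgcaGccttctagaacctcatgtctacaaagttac
Gm4070: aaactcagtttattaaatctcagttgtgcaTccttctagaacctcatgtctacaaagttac
Gm4070 held 221, 172 and 176 counts in the controls and 192, 137 and 106 in tumors 7, 8 and 9 (log2 fold change -0.03 ± 0.36, adjusted p = 0.989). In the controls nearly all counts of the pair therefore stood on Gm4070, and in the tumors they stood on both. The pair together held 222, 172 and 176 counts in the controls and 282, 238 and 309 in the tumors, with ratios of 0.632, 0.515 and 0.577 against 1.31, 1.01 and 0.809. Summed, the pair lay below the silent genes in the controls and about level with them in the tumors. Whether the mice differ in this locus or in its RNA was not tested.

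The stretch from 250 kb before the called gene Gm8979 to 250 kb after Gvin1 (105826751 to 106465326) held 14 tested genes, of which 12 share at least 50% of their words with other genes. Gm8979 held 6, 0 and 0 counts in the controls and 110, 66 and 102 in the tumors (log2 fold change 5.76 ± 0.72, adjusted p = 0.0422), while its copy Gm8989 held 114, 105 and 80 against 75, 78 and 113. Gm27149 was at 0 in the 3 controls and at 15, 18 and 17 in the tumors, with an adjusted p of 0.0727. Of the 14 genes 5 had all tumors above all controls, with 0 the other way. Gvin1 was the only 1 of 33 interferon-induced genes that passed the test. The median of that list as log2 fold change was 0.03. Of its members 2 had all tumors above all controls and 4 all tumors below, against 7.13% and 7.6% of all tested genes. Gbp5, a guanylate-binding protein, read 4.93, 6.51 and 6.82 times the silent genes in the controls and 6.79, 15.4 and 9.28 times in the tumors (log2 fold change 0.68 ± 0.25, adjusted p = 0.487).

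A group of near-identical gene models near Il22 on chromosome 10 gave 3 of the 9 higher calls. AC158600.4 (118340847 to 118343255, minus strand) was at 0 in every control and held 81, 106 and 100 counts in tumors 7, 8 and 9. Against a floor of 3 counts per library this is at least 37.6-fold higher, with an adjusted p of 0.00699. It was also at 0 in tumors 1 to 6, which together would hold 22.3 counts at the density of silent genes. It had little room to be seen in tumors 5 and 6, where that density was 0 and 0.296 counts per kilobase. Its neighbor AC158600.3 did the reverse, with 28, 57 and 52 counts in the controls and 13, 0 and 0 in the tumors (log2 fold change -3.06 ± 0.98, adjusted p = 0.409). The coding sequences of the pair differ in 1 of 2406 bases, which is the capital letter here (minus strand, chr10:118341989-118342049 and chr10:118347413-118347473).
AC158600.4: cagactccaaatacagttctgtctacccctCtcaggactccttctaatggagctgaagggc
AC158600.3: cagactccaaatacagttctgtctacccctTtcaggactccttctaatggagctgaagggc
The estimated counts stood mostly on AC158600.3 in the controls and on AC158600.4 in the tumors. No reads were examined at this letter, and all 31-base words of both models also occur in other genes. Together they held 28, 57 and 52 counts in the controls and 94, 106 and 100 in the tumors, or 0.295, 0.637 and 0.632 times the silent genes against 1.62, 1.67 and 0.980 times. AC153856.3 and AC153856.4, whose coding sequences differ in 0 of 2406 bases, each held 0, 2 and 1 counts against 38, 32 and 60 (log2 fold change 5.47 ± 0.58, adjusted p = 0.0255). Their counts were equal in every library, so they are 1 measurement and not 2. Il22, a gene of the same stretch for a cytokine of mucosal defence, held 13, 15 and 8 counts against 17, 22 and 29 and did not pass (adjusted p = 0.384). It shares 53.6% of its words with Iltifb, in the same stretch. Iltifb held 20, 25 and 29 counts against 8, 12 and 32 (adjusted p = 0.824).

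**Figure D2:**
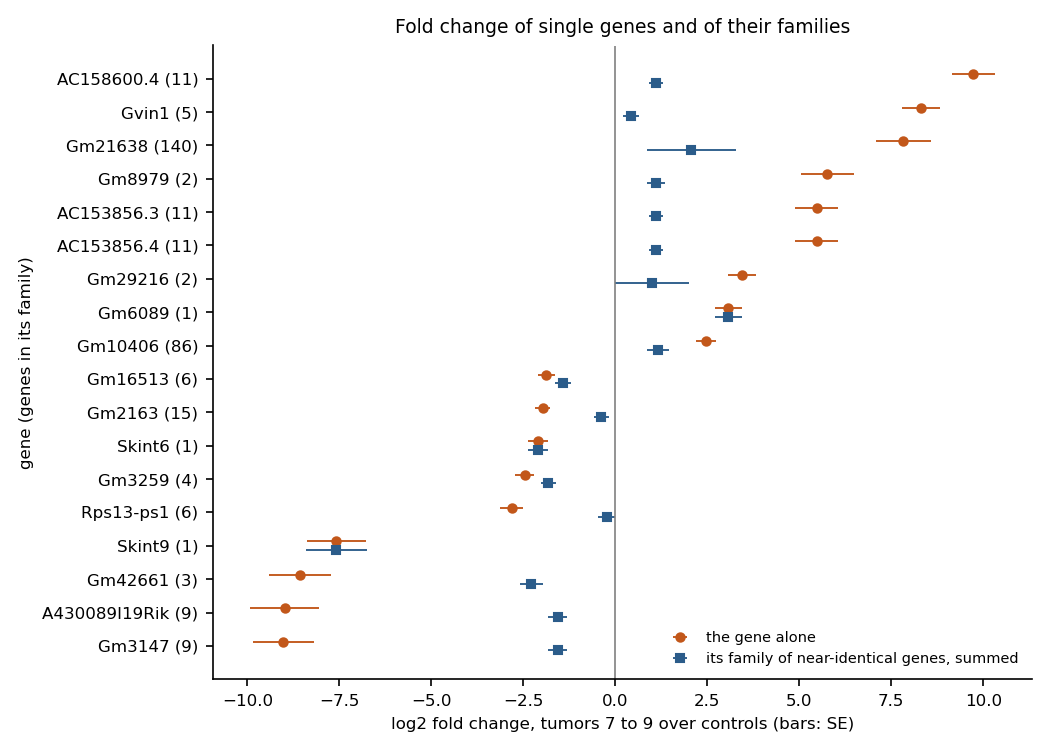
Log2 fold change of tumors 7 to 9 over controls for each called gene alone (orange) and for its family of near-identical genes with counts summed (blue), with bars of 1 standard error and the number of genes in the family in parentheses. Gvin1 moves from 8.32 to 0.43 once its copies are summed, while Skint9, Skint6 and Gm6089 have no copy to add. Fitted values of genes at 0 in all libraries of a group are no bound on the fold.

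Of the 9 lower genes 5 lie in 1 stretch of chromosome 5. Between 94052519 and 95593917, 27 genes were tested, 24 had all 3 tumors below all 3 controls, and 0 lay above. Their median log2 fold change was -2.26, and 26 of the 27 had an unadjusted p below 0.05, all lower in the tumors. All 27 share at least 50% of their 31-base words with other genes, so these are not 27 separate measurements. The stretch was chosen because it holds called genes. At 0 in all 3 tumors were A430089I19Rik, Gm3147, Gm7647, Gm42661 and Gm10424.

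A430089I19Rik (94302519 to 94306796, minus strand) held 45, 103 and 53 counts in controls 1 to 3, and Gm3147 (94612069 to 94616342, minus strand) held 50, 69 and 85. Both were at 0 in tumors 7, 8 and 9, which is at least 18.6-fold and at least 19.1-fold lower (adjusted p = 0.0445 and 0.0281). Their coding sequences differ in 2 of 1218 bases. The stretch around 1 of them is shown because, unlike in the pairs above, both genes had no estimated counts in the tumors (minus strand, chr5:94304346-94304406 and chr5:94613895-94613955).
A430089I19Rik: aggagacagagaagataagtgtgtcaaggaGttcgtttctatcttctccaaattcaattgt
Gm3147: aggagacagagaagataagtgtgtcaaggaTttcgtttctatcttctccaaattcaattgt
The pair together held 95, 173 and 138 counts in the controls and 0, 0 and 0 in tumors 7 to 9. In the controls this is 1.32, 2.52 and 2.20 times the silent genes, slightly above background. Tumors 1 to 6 held 0, 0, 0, 2, 0 and 0 counts on the pair. Other members of the family kept counts in tumors 7, 8 and 9, and shared reads may be assigned to them. BC061212 held 51, 64 and 61 counts in the controls and 18, 23 and 31 in tumors 7, 8 and 9. Gm7971 held 24, 61 and 48 against 35, 31 and 44, where the groups overlap.

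Other called genes of the stretch also fell. Gm16513 held 273, 355 and 309 counts in the controls and 56, 84 and 81 in the tumors (log2 fold change -1.87 ± 0.22, adjusted p = 0.0327). Gm3259 held 96, 111 and 80 against 13, 16 and 15 (-2.47 ± 0.26, adjusted p = 0.0255). Gm42661 held 61, 65 and 28 against 0, 0 and 0, at least 13.9-fold lower (adjusted p = 0.0371). In each of these genes the highest tumor lay below the lowest control. Summed with their near-identical copies, Gm3259 gave -1.82 (4 genes, adjusted p = 0.0653), Gm16513 -1.43 (6 genes, adjusted p = 0.0853), Gm42661 -2.28 (3 genes, adjusted p = 0.0682) and the pair with its 7 further copies -1.56 (adjusted p = 0.121). The direction was the same in each sum, and none passed the threshold.

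**Figure D3:**
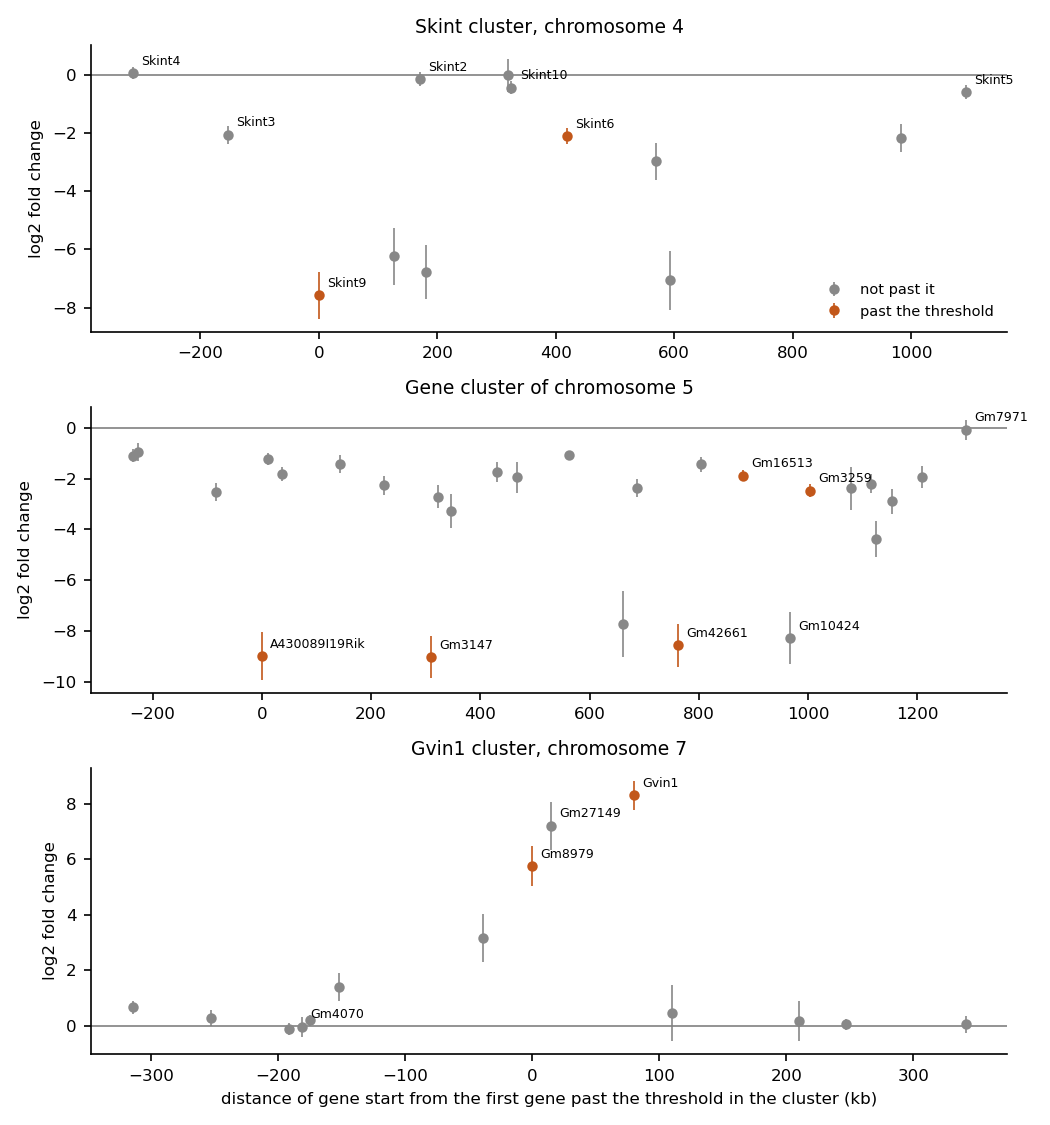
Log2 fold change of tumors 7 to 9 over controls, with bars of 1 standard error, for the tested genes of 3 stretches by distance in kb from the first called gene. Called genes are orange and the others gray. On chromosome 5, 24 of 27 genes had all tumors below all controls, and on chromosome 4 it was 10 of 13, while on chromosome 7 it was 0 of 14, with Gvin1, Gm8979 and Gm27149 highest.

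Skint9 (ENSMUSG00000049972, chromosome 4, 112385969 to 112433985, minus strand, 7 exons) has no near copy, since 1.94% of its 31-base words occur elsewhere. It held 32, 25 and 20 counts in controls 1, 2 and 3 and 0 in each of tumors 7, 8 and 9. This is at least 6.95-fold lower (adjusted p = 0.0445), and levels were 2.04 ± 0.239 CPM (SD, n = 3) in the controls. Adjusted p ran from 2.44e-08 to 1.00 over 18 alternatives, of which 7 called it. The control values are those of a silent gene, with ratios of 1.19, 0.983 and 0.859. At the same density tumors 7 to 9 together would hold 63.6 counts. Tumors 1 to 6 together would hold 12.7 counts of Skint9 at the density of their silent genes. That density was 0 counts per kilobase in tumor 5 and 0.296 in tumor 6, so a 0 there says little. Skint9 was also at 0 in tumors 1 to 6, so all 9 tumors read 0. Its coding sequence begins as follows, with the start codon in capitals, and is shown because reads of this gene can be placed without a near copy (minus strand, chr4:112419112-112419172).
Skint9: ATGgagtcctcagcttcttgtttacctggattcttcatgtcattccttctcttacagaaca

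Skint6 (chromosome 4, 112804616 to 113286973, minus strand) also fell. It held 98, 70 and 57 counts in the controls and 11, 12 and 22 in the tumors, or 1.31, 0.984 and 0.883 times the silent genes against 0.249, 0.239 and 0.269 times. The groups were well apart, and the log2 fold change was -2.10 ± 0.27 (adjusted p = 0.0450). These values sum the transcripts of Skint6, and the estimated counts stood on different transcripts in the groups. Skint6-201 held 97.4, 68.3 and 57.3 counts in controls 1, 2 and 3 and 0 in each of tumors 7, 8 and 9. Skint6-202 held at most 1.49 counts in a control and 11.4 to 21.8 in tumors 7 to 9. The cause of this split was not tested. Skint3 had 96, 82 and 62 counts against 10, 11 and 30 and missed the threshold (-2.05 ± 0.31, adjusted p = 0.0870). Around both called genes, between 112135969 and 113536973, 13 genes were tested, 10 had all tumors below all controls and 0 above, and the median log2 fold change was -2.10. Here 1 of 13 shares at least 50% of its words, in contrast to 27 of 27 on chromosome 5. The predicted genes Gm12819, Gm12814 and Gm12818, with 8 to 23 counts in each control, were at 0 in the 3 tumors. Their adjusted p values were 0.139, 0.106 and 0.124.

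No other member of the Skint family passed. Of 11 members tested, 2 were lower, 0 were higher and the median log2 fold change was -0.31, and 5 members had all tumors below all controls. Skint1, the founding member, gave -0.31, Skint2 -0.15, Skint4 0.07, Skint5 -0.59, Skint7 0.32, Skint8 -0.14, Skint10 -0.44 and Skint11 -0.05, none past the threshold. Skint10 read 73, 54 and 66 counts in the controls and 33, 37 and 53 in the tumors, near the level of silent genes in both. Thymic epithelial markers, a cell type in which Skint genes are known, gave no call. Of 17 tested, 0 passed, the median log2 fold change was 0.15 and 1 had all tumors below all controls. The control values of Skint9 and Skint6 are themselves at the level of silent genes, and the tumor values lie below that level. Neither group stood clearly above background in Skint9 or Skint6, so their counts give no measure of epithelial cell number or of RNA per cell. Whether the mice differ at this locus was not tested. The epithelial markers, with a median log2 fold change of 0.15, were not lower as a list. Cell number and RNA per cell cannot be told apart in bulk samples.

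The other called genes lie apart from these stretches. Gm2163 on chromosome 4 held 159, 121 and 128 counts in the controls and 17, 32 and 42 in the tumors (log2 fold change -1.98 ± 0.21, adjusted p = 0.0255), and 10 of 14 tested genes of the stretch around it, Gm2163 included, lay lower in CPM in all 3 tumors. Ccl19, a chemokine gene of the same stretch that draws T cells and dendritic cells, read 5.84, 4.08 and 6.38 times the silent genes in the controls and 4.16, 2.99 and 3.45 times in the tumors, where the groups overlap (adjusted p = 0.543). Summed with its 14 copies, Gm2163 gave -0.38 (adjusted p = 0.616). Gm10406 on chromosome 14 held 38, 33 and 44 counts against 170, 180 and 185 (2.47 ± 0.26, adjusted p = 0.0255), and 1.15 summed over 86 genes (adjusted p = 0.273). Gm6089 on chromosome 5 shares 18.3% of its words and held 9, 11 and 11 counts against 31, 103 and 105 (3.07 ± 0.38, adjusted p = 0.0371). It read 0.480 to 0.691 times the silent genes in the controls and 2.72 to 8.37 times in the tumors.

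The called genes Rps13-ps1 and Gm29216 are near copies of abundant transcripts. Rps13-ps1, a processed copy of the ribosomal protein gene Rps13, held 113, 98 and 102 counts in the controls and 15, 9 and 13 in the tumors (-2.82 ± 0.32, adjusted p = 0.0280). Rps13 itself held 171, 135 and 88 against 139, 161 and 146 (0.47 ± 0.25, adjusted p = 0.627). Summed over 6 such genes the log2 fold change was -0.24 (adjusted p = 0.805). Gm29216 shares 97.2% of its words with other genes, mostly the mitochondrial gene mt-Co1, and held 123, 203 and 90 counts against 751, 1936 and 1187. Since the mitochondrial share chose the libraries, its difference is given as a description and supports nothing.

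Most called genes share their sequence with other genes. Of the 18 called genes, 15 share at least 50% of their 31-base words with other genes, against 3981 of 36324 tested genes with such words (11.0%). The 3 that do not are Skint9, Skint6 and Gm6089. When counts were summed over families of near-identical genes, an alternative chosen after seeing the data, 0 of 34027 families or single genes passed as higher and 0 as lower with edgeR, and 3118 had an unadjusted p below 0.05. Skint9, Skint6 and Gm6089 then each had an adjusted p of 0.0653 with the fold changes given above.

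Among the 10 genes with the smallest p that missed the threshold were 3 with few near copies. Ifi202b, an interferon-inducible gene of the innate DNA-sensing family, held 26, 19 and 15 counts in the controls and 65, 52 and 110 in the tumors (2.14 ± 0.30, adjusted p = 0.0727). Garem1, an adaptor of growth factor receptor signals, held 59, 79 and 66 counts against 130, 181 and 187 (1.5 ± 0.22, adjusted p = 0.0831). Gm45483 held 296, 157 and 143 against 762, 848 and 702 (2.28 ± 0.31, adjusted p = 0.0597). The groups did not overlap in these 3 genes. The other 7 were Gm13307, Gm27149, Gm37547, Gm29444, Gm13305, Gm3106 and Gm10424.

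The sex chromosomes differed among the libraries within and between groups. Gm21638 on the Y chromosome (77318999 to 77345251) was at 0 in all 3 controls and held 19, 24 and 36 counts in tumors 7, 8 and 9, at least 10.1-fold higher (adjusted p = 0.0327). Its 140 near-identical Y genes together held 23 and 19 counts in controls 1 and 2, 1376 in control 3, and 1676, 1320 and 2650 in the tumors. Control 3 thus lay with the tumors, and the family sum did not pass (log2 fold change 2.06, adjusted p = 0.650). All 1570 Y genes took 0.198%, 0.257% and 0.722% of the counts in controls 1, 2 and 3 and 0.255%, 0.386% and 0.738% in the tumors, so control 3 and tumor 9 were highest.

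No single-copy Y gene named here passed the test. Ddx3y, an RNA helicase, held 29, 19 and 53 counts against 93, 88 and 88 (1.66 ± 0.41, adjusted p = 0.296). Uty, a histone demethylase gene, read 18.4, 4.64 and 6.21 times the silent genes in the controls and 57.0, 59.2 and 31 times in the tumors (2.30 ± 0.48, adjusted p = 0.229), whereas its relative Kdm5d read 11.7, 13.8 and 14.4 against 13.4, 14.4 and 13.8 times (adjusted p = 0.998). Kdm5d read alike in every library, also in controls 1 and 2, which held few counts on the Gm21638 family. Whether the counts of Kdm5d and Uty come from the Y chromosome alone was not tested. Eif2s3y, a translation factor subunit, held 58, 37 and 58 against 98, 77 and 105 (1.13 ± 0.30, adjusted p = 0.320). Xist, the noncoding RNA of the inactive X chromosome, held 833, 345 and 163 counts in controls 1, 2 and 3 and 142, 138 and 169 in the tumors (-1.25 ± 0.44, adjusted p = 0.445). Controls 1 and 2 held the most Xist, and control 3 lay within the tumor range.

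Counts of genes near background also gave a value per chromosome. Over 20449 genes at 0.2 to 4 times the silent genes in all 6 libraries, the median on the X chromosome was 0.88, 1.07 and 0.62 times the autosomal median in controls 1, 2 and 3 and 0.66, 0.58 and 0.59 times in tumors 7, 8 and 9. The X value was high in the controls with more Xist and fewer counts on the Gm21638 family, and control 3 again lay with the tumors. The mixture of sexes in these libraries is not given by the labels, and its part in the differences between groups was not tested. Among autosomes tumor 9 stood out, with 1.22 times the autosomal median on chromosome 2 against 0.99 to 1.03 in the other libraries, and 1.12 times on chromosome 15 against 0.88 to 1.00. On chromosome 7 it read 0.84 against 0.93 to 1.00. Control 1 was lowest on chromosome 13, at 0.85 against 0.93 to 1.03 in the other libraries.

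**Figure D4:**
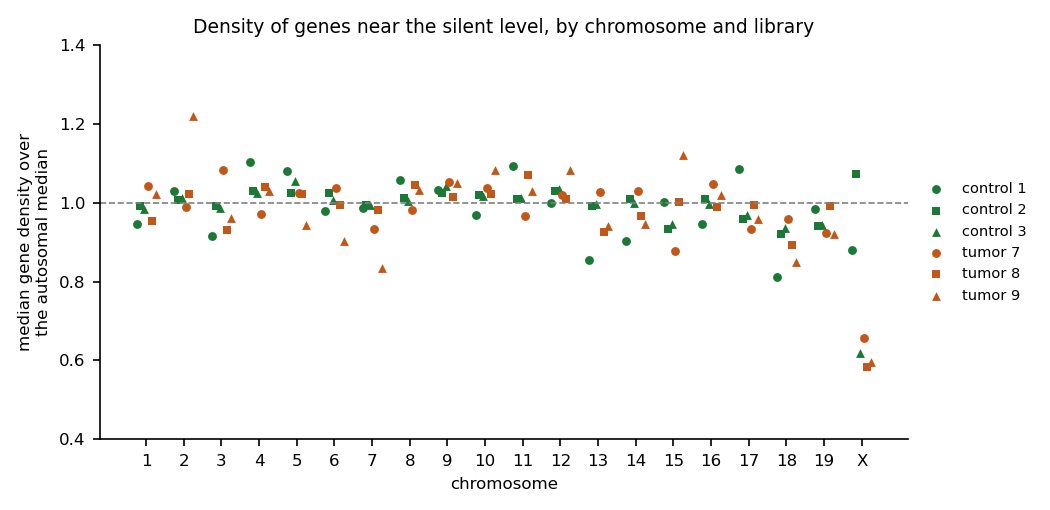
Median density of genes near background on each chromosome, divided by the autosomal median of the same library, for controls 1 to 3 and tumors 7 to 9. The X chromosome splits controls 1 and 2, at 0.88 and 1.07, from the other 4 libraries at 0.58 to 0.66, and tumor 9 rises to 1.22 on chromosome 2.

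Il7r, the induced gene, did not pass the test across all genes in this comparison. Il7r (ENSMUSG00000003882, chromosome 15, 9505788 to 9530176, minus strand) held 76, 88 and 75 counts in controls 1 to 3 and 87, 130 and 168 in tumors 7, 8 and 9. The log2 fold change was 0.87 ± 0.19 (SE, adjusted p = 0.264), from 6.44 ± 0.919 CPM (SD, n = 3) to 11.8 ± 0.436 CPM. Its ratio to silent genes was 1.21, 1.48 and 1.38 in the controls and 2.26, 3.08 and 2.46 in the tumors. All 3 tumors lay above all 3 controls, and the difference of 0.93 on the log2 scale had p = 0.1 in a two-sided exact permutation test, the smallest p that 3 against 3 can give. Scaled by library totals the log2 fold change was 0.18, and on log2(TPM + 1) it turned to -0.12. Tumors 1 to 6 held 680, 2364, 4151, 572, 2447 and 522 counts. The files do not separate transcripts of the transgene from those of the mouse's own gene.

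No partner or signal carrier of the receptor passed. Of 26 genes of JAK-STAT signaling, Il7r included, 0 passed in either direction, and the median log2 fold change was 0.26. All tumors lay above all controls in 3 and below in 1, against 7.13% and 7.6% of all tested genes. Il2ra, the alpha chain of the interleukin-2 receptor and a known STAT5 target, read 4.58, 2.51 and 2.41 times the silent genes in the controls and 7.08, 6.53 and 5.2 times in the tumors (0.95 ± 0.26, adjusted p = 0.327). Socs2, a feedback inhibitor of cytokine signaling, read 4.71, 3.10 and 2.92 against 4.58, 5.91 and 4.76 times (0.45 ± 0.20, adjusted p = 0.546). The kinase genes Jak1 and Jak3 and the transcription factor gene Stat5b had adjusted p of 0.859, 0.806 and 0.733. Stat3, another signal carrier of cytokine receptors, read 4.05, 2.63 and 2.54 against 3.11, 3.84 and 2.55 times (adjusted p = 0.991). Survival genes gave 0 calls among 16 tested. Bcl2, which blocks cell death, read 1.64, 1.25 and 1.39 against 1.68, 2.42 and 1.67 times the silent genes (0.36 ± 0.17, adjusted p = 0.592), and the kinase gene Pim1 gave 0.92 ± 0.26 (adjusted p = 0.341). Bcl2l11, which encodes the death-promoting protein BIM, read 3.96, 2.71 and 2.48 against 2.23, 4.15 and 2.77 times (adjusted p = 0.951).

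The thymus label was checked with T cell markers. Trac and Trbc2 stood above background in all 6 libraries, while the median of 17 receptor and surface genes was 5.15, 1.69 and 1.58 times the silent genes in controls 1, 2 and 3 and 2.76, 5.43 and 1.97 times in tumors 7, 8 and 9. Trac, the constant part of the T cell receptor alpha chain, read 25.4, 25.9 and 27.1 times the silent genes in the controls and 14.7, 35.4 and 16.8 times in the tumors (adjusted p = 0.731). Trbc2, the constant part of the beta chain, read 18, 10.6 and 12.6 against 14.1, 20.2 and 8.42 times (log2 fold change -0.04 ± 0.27, adjusted p = 0.982). The other beta constant gene Trbc1 read 30.9 in control 1 and 2.70 and 2.23 in controls 2 and 3, and 5.38, 18 and 2.21 in the tumors. Groups overlapped in all 3 genes, and Trbc1 and Trbc2 share 44.8% and 48.5% of their words with other genes. Ptprc, the pan-leukocyte phosphatase CD45, read 9.23, 2.83 and 3.16 against 13.2, 12.2 and 4.42 times (0.93 ± 0.48, adjusted p = 0.617).

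T cell genes also varied within each group. Of 17 receptor and surface genes, 9, 3 and 3 lay above 5 times the silent genes in controls 1, 2 and 3 and 7, 9 and 4 in tumors 7, 8 and 9. None passed the test in either direction, with 0 genes separated between groups and a median log2 fold change of 0.08. The libraries with more such genes, control 1 and tumors 7 and 8, are those with 6.73%, 11.1% and 9.02% of counts on mitochondrial genes, against 0.095% to 2.55% in the others. The part of this in the comparison was not tested. Cd3d, a chain of the CD3 signaling complex, read 12.2, 7.52 and 8.48 against 8.27, 26.2 and 11.3 times, and Thy1, a surface marker of thymocytes, 8.80, 4.06 and 4.30 against 6.37, 27.5 and 8.06 times. Tumor 8 was highest in both, as it was for Cd3e, which read 2.89, 1.97 and 1.6 against 2.25, 5.46 and 1.97 times. Of 18 genes of T cell signaling 0 passed, and the median was 0.29. Lcp2, an adaptor of receptor signaling, read 6.34, 4.40 and 4.34 against 5.14, 17.1 and 6.98 times (adjusted p = 0.510), and Prkcq, a protein kinase C of T cells, 10.2, 10.5 and 10.9 against 6.90, 10.5 and 9.53 times (adjusted p = 0.695).

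**Figure D5:**
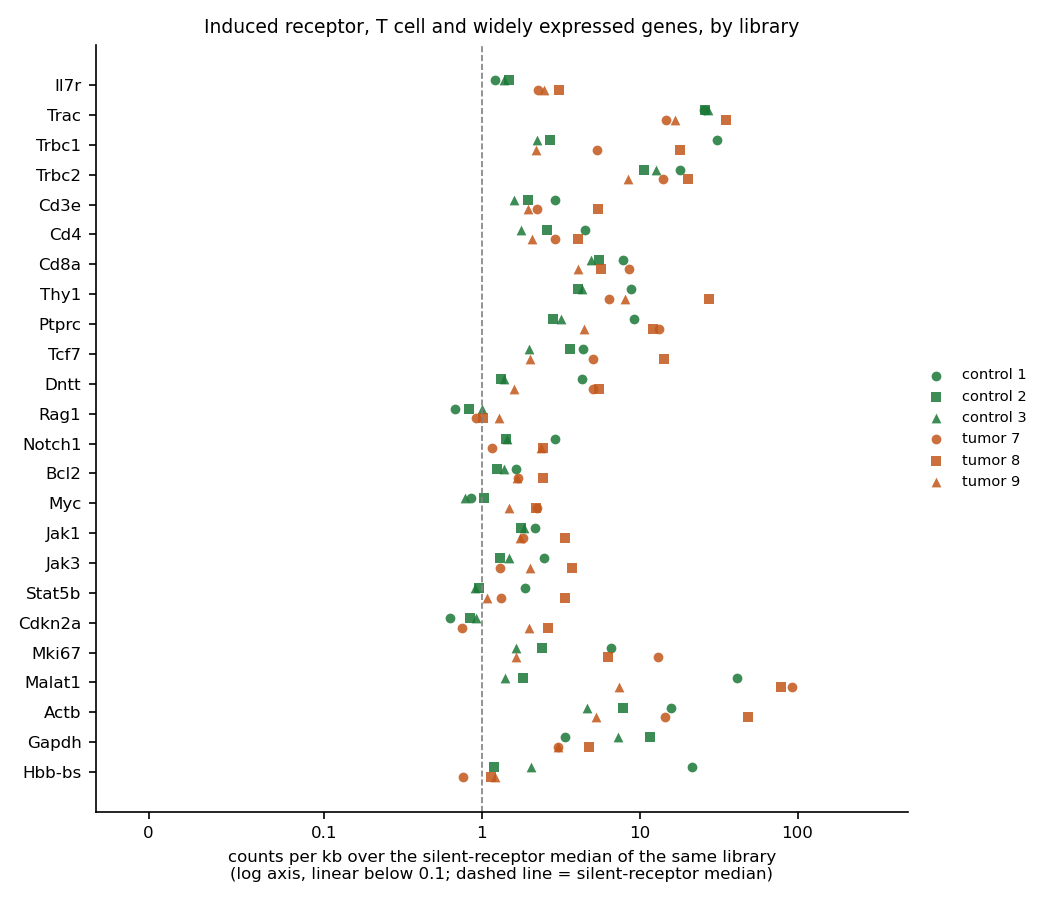
Ratio to silent genes, on a log axis that is linear below 0.1, for Il7r, T cell genes and widely expressed genes in controls 1 to 3 (green) and tumors 7 to 9 (orange), 1 symbol per library. For Il7r the tumors lie at 2.26 to 3.08 and the controls at 1.21 to 1.48, Myc is also apart, and Trbc2, Ptprc and most other genes overlap between groups.

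Markers of developmental stage gave no call. Of 18 genes of double-positive thymocytes and receptor recombination, 0 passed, and the median log2 fold change was 0.02. The adjusted p of Cd4, Cd8a, Rag1 and Dntt, the last of which adds bases at receptor joins, were 0.987, 0.988, 0.760 and 0.716. Xrcc4, a DNA end-joining factor, read 11.4, 10 and 9.22 times the silent genes in the controls and 14.8, 16.2 and 11.9 times in the tumors (0.43 ± 0.19, adjusted p = 0.544). Arpp21, a gene of double-positive thymocytes, read 4.36, 3.38 and 3.67 against 5.52, 6.84 and 4.01 times (adjusted p = 0.544). Among 20 T lineage transcription factor genes 0 passed, and the median was 0.43. All tumors lay above all controls in 5 and below in 0, against 7.13% and 7.6% of all tested genes. Among the 5 were Gata3, Runx1, Ikzf3 and Foxo1, named because their groups do not overlap. Gata3, which directs early T cell and helper differentiation, read 2.53, 1.31 and 1.14 against 3.03, 3.41 and 2.42 times the silent genes (0.78 ± 0.28, adjusted p = 0.454). Ikzf3, an Ikaros family factor of lymphocytes, read 1.99, 1.93 and 1.52 against 4.00, 8.38 and 2.08 times (1.28 ± 0.36, adjusted p = 0.337). Satb1, a chromatin organizer of thymocytes, read 8.56, 2.36 and 2.23 against 6.95, 8.34 and 2.95 times (adjusted p = 0.848), and Tcf7, which sets T cell fate, 4.35, 3.60 and 2.00 against 5.09, 14.3 and 2.02 times (adjusted p = 0.635). Tcf12, an E protein factor, had an adjusted p of 0.839.

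Genes tied to T cell leukemia did not pass either. Of 20 oncogenes 0 passed, the median log2 fold change was 0.35 and 4 had all tumors above all controls, Hoxa10, Nkx2-1, Myc and Spi1. The share over all tested genes was 7.13%. Nkx2-1, a homeobox gene activated in some T cell leukemias, read 2.20, 1.25 and 1.20 times the silent genes in the controls and 4.02, 6.11 and 3.17 times in the tumors (1.44 ± 0.26, adjusted p = 0.139). Myc, a driver of cell growth, read 0.855, 1.04 and 0.781 against 2.24, 2.21 and 1.49 times (1.08 ± 0.25, adjusted p = 0.276). The controls lay at background for Myc and the tumors slightly above it. Myb, a factor of early blood cells, read 4.90, 2.72 and 2.34 against 5.93, 9.45 and 3.84 times (0.86 ± 0.31, adjusted p = 0.454), and Nras, a small GTPase, 2.96, 3.19 and 2.87 against 4.03, 4.58 and 2.92 times (adjusted p = 0.696). Of 27 tumor suppressor genes 0 passed, with 4 above and 0 below. Tet2, an enzyme that oxidizes methylated DNA, read 4.53, 3.24 and 2.91 against 14.6, 9.12 and 4.78 times (1.39 ± 0.38, adjusted p = 0.327), and Cdkn2a and Dnmt3a had adjusted p of 0.504 and 0.999. Among 16 Notch pathway genes 0 passed and the median was 0.05, with Notch1 at 26.5 ± 10.1 CPM in the controls and 26.4 ± 8.75 CPM in the tumors (SD, n = 3 each, adjusted p = 1.00, edgeR).

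Growth and metabolism genes gave no call. Of 21 glycolysis genes 0 passed, the median log2 fold change was -0.51 and 6 had all tumors below all controls against 0 above. Over all tested genes 7.6% lay below in this way. Slc2a1, a glucose transporter, held 91, 365 and 242 counts in the controls and 31, 65 and 69 in the tumors (-1.94 ± 0.47, adjusted p = 0.287), and the glycolytic enzyme gene Tpi1 held 92, 293 and 195 against 46, 64 and 66 (-1.53 ± 0.41, adjusted p = 0.322). Eno1 and Pkm, later enzymes of the pathway, gave -1.32 ± 0.34 and -1.93 ± 0.59 (adjusted p = 0.313 and 0.387), and Gapdh read 3.37, 11.6 and 7.28 against 3.04, 4.80 and 3.02 times the silent genes (adjusted p = 0.444). In Slc2a1 and Tpi1 control 1 lay nearer to the tumors than controls 2 and 3 did. Of 26 cell division genes 0 passed, the median was -0.08, and 4 had all tumors below, Cdk1, Ccnb2, Aurka and Mcm2. Mki67, the proliferation marker Ki-67, read 6.58, 2.39 and 1.65 against 13, 6.26 and 1.64 times the silent genes (adjusted p = 0.721). Of 20 genes of MYC-driven growth 0 passed, with a median of -0.17. Tumor 7 was highest in the nucleolar genes Npm1 and Ncl, at 60.1 and 18.9 times the silent genes, where tumor 9 read 6.38 and 2.68 and the controls 19.1 to 33.0 and 3.94 to 6.17 (adjusted p = 0.977 and 0.703). Rrm1, a subunit of the enzyme that makes DNA precursors, read 21.5, 22.9 and 21.2 against 26.9, 25.8 and 19.2 times (adjusted p = 0.947).

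Messenger RNA of ribosomal proteins took a smaller share of the counts in each of the 3 tumors than in any control. The 80 genes took 0.104%, 0.252% and 0.169% of the counts in controls 1 to 3 and 0.0474%, 0.0735% and 0.0608% in tumors 7 to 9, or 0.175% ± 0.0740 against 0.0606% ± 0.0131 (SD, n = 3 each). All tumors lay below all controls, with p = 0.1 in a two-sided exact permutation test, again the smallest possible. Outside mitochondrial and satellite-like genes, the share was 0.186%, 0.360% and 0.249% in the controls and 0.161%, 0.147% and 0.104% in the tumors, or 0.265% ± 0.0883 against 0.137% ± 0.0298 (SD, n = 3 each). The groups again did not overlap (p = 0.1, same exact permutation test), and the ratio of the means was smaller than over all counts. As a ratio to silent genes the median of the list was 5.48, 13.2 and 8.61 in the controls and 5.35, 7.83 and 3.37 in the tumors, where the groups overlap. In the test across genes 0 of 80 passed, the median log2 fold change was -0.65 and 12 lay below against 1 above. The shares over all tested genes were 7.6% below and 7.13% above. Rpl4 and Rpl21, the members with the highest CPM, had adjusted p of 1.00 and 0.891. The number of protein-coding genes over 5 times the silent genes was 1565, 1198 and 1117 in the controls and 1597, 2212 and 1142 in the tumors (p = 0.400, two-sided exact permutation test), so the groups overlapped.

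Stress genes and abundant noncoding RNA set single tumors apart. Of 23 immediate-early and heat shock genes 0 passed, the median log2 fold change was 0.37, and 7 had all tumors above all controls, against 7.13% of all tested genes. Hspa1b, an inducible HSP70 chaperone gene, held 32, 26 and 35 counts in the controls, 28 in tumor 7, 71 in tumor 9 and 485 in tumor 8 (2.82 ± 0.85, adjusted p = 0.386), so tumor 8 stood far above the rest. Rn7s1 and Rn7s2, copies of the signal recognition particle RNA, each held 392, 10 and 9 counts in the controls and 798, 17598 and 2230 in the tumors, again most in tumor 8. The mitochondrial leucine tRNA ligase gene Lars2, listed with them, held 1117, 994 and 910 counts against 2310, 29908 and 3379 (3.75 ± 0.86, adjusted p = 0.276). The chaperone genes Hsp90ab1 and Hsp90aa1 were highest in tumor 7, at 33.9 and 23.9 times the silent genes, and lowest in tumor 9, at 3.81 and 4.49 times (adjusted p = 0.787 and 0.940). Kcnq1ot1, a long imprinted RNA, had an adjusted p of 0.822. Malat1, a nuclear noncoding RNA, read 41.1 times the silent genes in control 1, 1.82 and 1.4 in controls 2 and 3, and 92.0, 79.0 and 7.39 in the tumors (adjusted p = 0.672). Actb, the cytoskeletal actin gene, read 15.8, 7.79 and 4.62 against 14.5, 48.7 and 5.32 times (adjusted p = 0.642). Among 16 widely expressed genes 0 passed, and the median was -0.08. The translation factor genes Eef1a1 and Eef2 had adjusted p of 0.903 and 0.956. Control 1 thus resembled tumors 7 and 8 for Malat1, and tumor 9 lay closer to controls 2 and 3.

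Markers of other cells did not pass the test in any list. Over all tested genes 7.13% had all tumors above all controls and 7.6% all tumors below. For B cells 4 of 15 genes lay above and 3 below, with a median log2 fold change of 0.06. The summed level of this list was 145 to 167 CPM in the controls and 164 to 213 CPM in the tumors. Jchain, the joining chain of secreted antibody, read 7.26, 4.55 and 5.45 times the silent genes in the controls and 11.8, 13.2 and 6.79 times in the tumors (0.81 ± 0.25, adjusted p = 0.390), and the B cell factor gene Ebf1 gave 0.79 ± 0.26 (adjusted p = 0.413). Of 15 genes of antigen presentation 0 passed, with a median of 0.33, and Ciita, the master regulator of MHC class II, and the class I gene H2-Q7 had adjusted p of 0.531 and 0.928. Macrophage and dendritic markers had 3 above and 2 below of 19 (median -0.02), neutrophil markers 0 and 1 of 12 (0.08), NK and cytotoxic markers 1 and 1 of 14 (-0.01) and muscle markers 0 and 1 of 14 (-0.12). Of their members, Cx3cr1, a chemokine receptor of macrophages, gave 1.01 ± 0.31 and Siglech, a lectin of plasmacytoid dendritic cells, 0.99 ± 0.30 (adjusted p = 0.398 and 0.387). Cxcr2 and Csf3r, Eomes and Klrk1, and Myh7 and Ttn, the leading neutrophil, cytotoxic and muscle members, had adjusted p from 0.443 to 0.978. Psmb11, a proteasome subunit of cortical thymic epithelium, read 6.17, 4.47 and 4.36 against 7.10, 6.57 and 4.94 times, and Pax1, a factor of thymus formation, 3.45, 2.91 and 2.95 against 2.55, 8.01 and 3.62 times (adjusted p = 0.760 and 0.668). Erythroid markers had 0 above and 2 below of 11 (-0.20). Hbb-bs, adult beta globin, read 21.5 times the silent genes in control 1 and 1.19 and 2.04 in controls 2 and 3, against 0.755, 1.14 and 1.21 in the tumors (adjusted p = 0.420), so control 1 stood apart. Slc4a1, the red cell anion exchanger, and Tfrc, the transferrin receptor, had adjusted p of 0.932 and 0.956. Of 19 markers of stroma, endothelium and fat 0 passed, 2 lay above and 3 below, with a median of 0.02. Pecam1, an endothelial adhesion gene, read 26.4, 5.06 and 5.36 against 54.1, 62.3 and 24.9 times (1.91 ± 0.60, adjusted p = 0.398), and the collagen gene Col1a2 read 2.91, 2.57 and 2.71 against 7.48, 7.78 and 4.49 times (1.21 ± 0.22, adjusted p = 0.149). Vwf, the endothelial clotting factor gene, gave -0.25 ± 0.17 (adjusted p = 0.707). Jchain, Ebf1, Cx3cr1, Siglech, Pecam1 and Col1a2 rose, but they do not stand for their lists. In the B cell, macrophage and stroma lists 3, 2 and 3 other members had all tumors below all controls.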

How the data were processed

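Polyadenylated RNA of 12 mouse thymus libraries was sequenced with paired 75-base reads, as the labels' protocols state. The authors deposited kallisto estimated counts and TPM values per transcript, per the file headers. FastQC, kallisto and mm10 are named in the submitters' processing notes, and no version or index release was given in the sources used here. Estimated counts were summed per gene (51826 genes) and rounded. Coordinates and transcript sequences came from GENCODE M21 (GRCm38), which held 51633 of these genes.

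Tumors 7 to 9 were tested against controls 1 to 3 with edgeR 4.0.16 in R 4.3.3 (quasi-likelihood F test, TMM factors, filterByExpr), with fold changes as tumor over control and adjusted p over all 36449 genes. CPM values use TMM factors. The SE of a log2 fold change is its absolute value divided by the square root of the F statistic. It is not a separately fitted standard error, and it understates the uncertainty where a group holds almost no counts. The code was tested on simulated data. Exact permutation tests of single values over the 6 libraries used scipy 1.17.1, with 0.1 as the smallest possible p. Alternatives used DESeq2 1.42.0, limma 3.58.1 on counts and on log2(TPM + 1), other scalings and filters, and leaving out each library. Genes were joined into a family when at least 50% of the 31-base words of the smaller, with 200 or more words, were shared; 31 is kallisto's default word length. Families, pairs and stretches of 250 kb to either side of a called gene were chosen after seeing the data.

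The libraries, gene lists and tests were chosen with earlier results of these data known. Named were 29 genes fixed by name, all called genes and their nearest tested neighbors, the 10 genes nearest to the threshold, the 10 coding genes of highest ratio per group, and up to 4 called or otherwise 2 highest members per list; some named genes are not reported here, and further genes whose groups do not overlap were chosen after their values were seen. The 95% Wilson interval of a library's share of counts extended no more than 0.0321 percentage points from the share. It covers counting error alone, because reads that carry no molecular identifier need not be independent molecules. The strand setting of the counting is not given, so antisense and overlapping genes are uncertain.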

Additional observations from a re-analysis of the deposited data

How the results depend on the processing

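The 9 higher and 9 lower genes became 295 and 76 with DESeq2, 20 and 20 with robust edgeR, 63 and 295 with library totals, 3 and 4 with a mean of at least 50 counts, and 2 and 0 with the silent density as covariate. Scaled by the silent receptors 6 were higher and 5 lower, with the median of all genes at -0.12. In limma on log2(TPM + 1) 13 were higher and 98 lower, with that median at -0.68. The fit of all 12 libraries, as well as the one with near-identical families summed, gave 0 and 0, with 548 and 3118 genes at an unadjusted p below 0.05. Leaving out 1 library gave 1 to 249 higher and 0 to 39 lower genes. Counts stayed within 1.5 times with DESeq2 size factors in edgeR (9 and 6), voom (9 and 10), no filter (9 and 9), protein-coding genes (9 and 13) and without mitochondrial and satellite-like genes (9 and 9). The log2 fold change of Il7r turned to -0.117 in limma on log2(TPM + 1). The cause of these changes was not tested. No paired analysis was possible because the sample labels used here pair no tumor with a control. Most genes lay near background, so a change in expression beneath the background signal of a library may not be detectable. Some called genes, such as Gvin1 and Skint9, differed at ratios near 1 or lower.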
